A study of Rattus norvegicus with 48 samples.

Results

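Circulating miRNAs were compared between plasma drawn 4 weeks after calvarial surgery and plasma drawn from the same rats before surgery. The comparison used 24 of the 48 samples of the series, the 12 week 4 samples and the 12 baseline samples (week 0), chosen by the time point in the sample labels and paired by animal. The study names the strain in 2 ways, Sprague-Dawley in its methods and Wistar elsewhere. Per the methods, the rats were males aged 12 weeks at surgery, and blood was taken from the tail vein under sevoflurane. All 12 rats received 1 circular calvarial defect of 8 mm, which was left empty or filled with a collagen-hydroxyapatite (CHA) scaffold, a CHA scaffold with a plasmid for BMP2 and miR-590-5p, or a CHA scaffold with extracellular vesicles of human mesenchymal stromal cells. The treatment of each rat was not mapped here, so the treatments are mixed in both groups. From the rats operated on, the study had selected 6 strong and 6 weak regenerators by their bone volume, and both kinds were analysed together. In the labels, baseline samples have no known regeneration outcome, so each was given that of its animal. At week 1 the rats had also been bled and scanned by microCT under anaesthesia, per the methods. No unoperated rats were among the samples. Surgery, healing, the drugs given around surgery, the procedures at week 1 and 4 weeks of ageing therefore cannot be told apart.

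MiRNAs are short RNAs that are cut from the arms of a hairpin (5p and 3p) and repress messenger RNAs which pair with the seed at their 5′ end. In plasma they are carried in vesicles and in complexes with proteins and lipoproteins, and many come from blood cells, while others are made by few tissues and mark them. The miR-322 cluster is a group of neighbouring hairpins on the X chromosome (miR-322, the rodent counterpart of human miR-424, with miR-503, miR-351, miR-542 and miR-450), which is transcribed together and is known for acting on the cell cycle and on differentiation. MiR-140 and miR-455 are made in chondrocytes, miR-1 and miR-133 in skeletal and heart muscle, miR-122 and miR-802 in liver, and miR-144, miR-451 and miR-486 in the erythroid lineage.

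The mature sequences of the miRNAs on which the results turn are shown first, since several of them share a seed (bases 2 to 8, in capitals), which sets the messenger RNAs they can pair with. The sequences are those of RefSeq (GRCr8), which held an entry for 583 of the 645 miRNAs counted and for 43 of the 48 that changed.
Of the miR-322 cluster, the miRNAs that fell at week 4 are
miR-322-5p: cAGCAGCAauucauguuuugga
miR-322-3p: aAACAUGAagcgcugcaaca
miR-503-5p: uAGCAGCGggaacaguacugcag
miR-503-3p: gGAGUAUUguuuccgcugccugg
miR-351-5p: uCCCUGAGgagcccuuugagccuga
miR-351-3p: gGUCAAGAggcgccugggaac
miR-542-5p: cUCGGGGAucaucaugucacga
miR-542-3p: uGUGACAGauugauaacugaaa
miR-450a-5p: uUUUGCGAuguguuccuaaugu
miR-450b-5p: uUUUGCGAuguguuccuaaua
miR-450b-3p: aUUGGGGAcgcuucgcauuca
The miRNAs that share the seed of miR-322-5p, shown because they did not all move with it, are
miR-195-5p: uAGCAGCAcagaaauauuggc
miR-497-5p: cAGCAGCAcacugugguuugua
miR-16-5p: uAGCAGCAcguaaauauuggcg
miR-15b-5p: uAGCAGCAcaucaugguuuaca
Those of cartilage are
miR-140-5p: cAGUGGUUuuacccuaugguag
miR-140-3p: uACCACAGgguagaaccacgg
miR-455-3p: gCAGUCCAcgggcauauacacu
Those of muscle, shown because they differ from each other at 1 base within each pair, are
miR-133a-3p: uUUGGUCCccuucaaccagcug
miR-133b-3p: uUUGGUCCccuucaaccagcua
miR-1b: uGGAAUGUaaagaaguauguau
miR-1-3p: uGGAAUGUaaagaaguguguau

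Levels are given as reads per 1000000 miRNA reads (RPM), for 12 rats per time point as the lowest, the median and the highest rat. The total miRNA count per sample was 482189 to 1360663 at baseline (median 1020768) and 489502 to 1514610 at week 4 (median 964583). In all, 335 miRNAs had a count above 0 in all 24 samples. The extraction spike-in UniSp2 gave 34.2 ± 5.61 reads per 1000 miRNA reads at baseline and 41.9 ± 9.77 at week 4 (SD, n = 12; higher in 8 of 12 rats, exact sign-flip permutation test, p = 0.0469, adjusted p = 0.141 over 3 measures). An RPM value is a share of the miRNA reads, and in plasma a lower share cannot tell fewer releasing cells from less release per cell. MiR-203a-3p and miR-205, markers of skin epithelium, reached 60794 and 31252 RPM in the week 4 sample of rat 25, against medians of 8542 and 3428 RPM over the week 4 samples. They were also high at week 4 in rat 3 (39464 and 9493 RPM) and rat 29 (32025 and 10496 RPM). Rat 3 had the highest baseline values of both (24948 and 8883 RPM).

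At week 4, 39 miRNAs were lower than at baseline and 9 were higher, of 400 tested with edgeR's quasi-likelihood test with the rat as a block (FDR under 0.05). The share of the tested miRNAs called was 12% in all, 9.75% for lower and 2.25% for higher, and 93 of the 400 had an unadjusted p under 0.05. Of the 39 lower miRNAs, 20 were lower in 12 of 12 rats and 35 in at least 10 rats, where 5.25% and 13% of all miRNAs tested were. Of the 9 higher miRNAs, 0 were higher in 12 of 12 rats and 4 in at least 10, where 3% of those tested were. More than 2-fold changes were found for 12 of the 39 decreases and 2 of the 9 increases, and the median absolute log2 fold change was 0.89 for the decreases and 0.80 for the increases. The direction of the decreases held in every alternative run, and 24 of the 39 stayed under the threshold in all 12 alternatives and with each rat left out in turn. Of the 9 increases, 0 did so. Without the rat as a block, the 24 samples gave 35 calls (2 higher and 33 lower), which included 31 of the 39 decreases and 1 of the 9 increases, that of miR-144-3p.

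**Figure D1:**
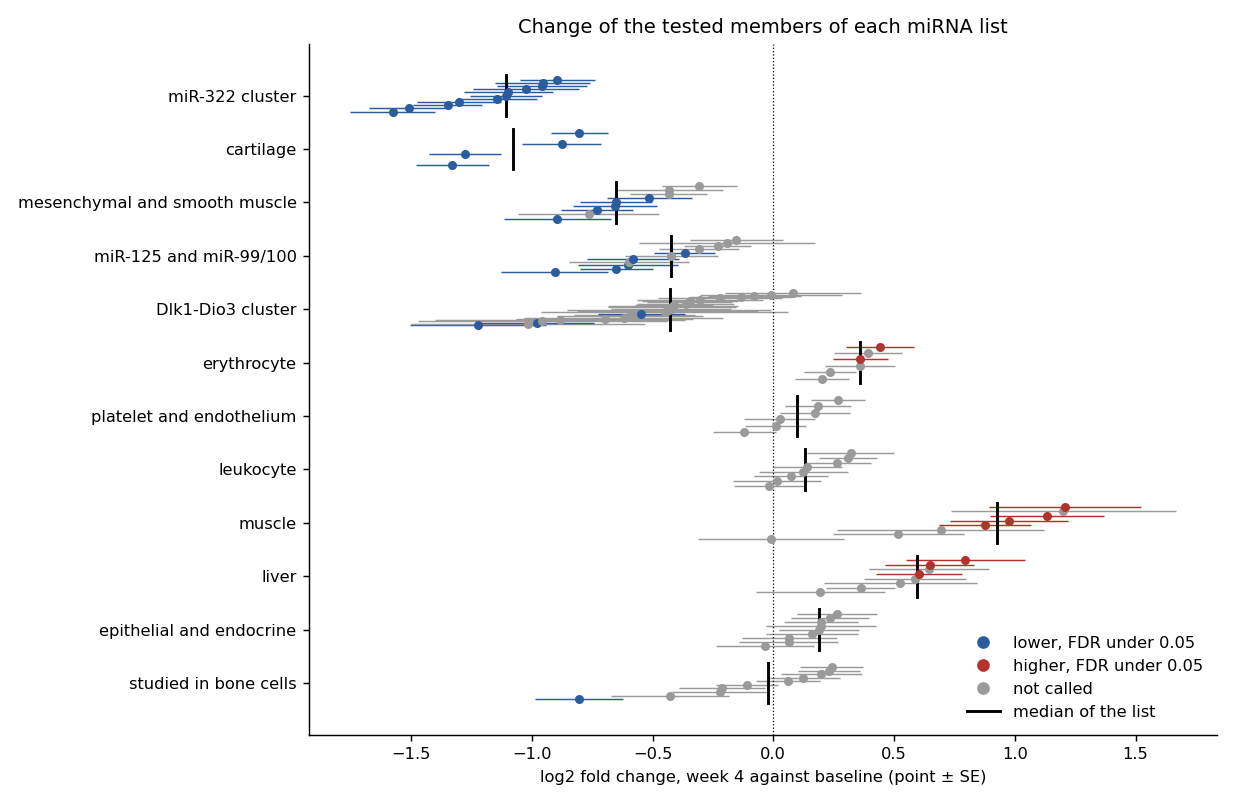
Log2 fold changes of week 4 against baseline (x axis, point ± SE, 12 rats) for the tested members of 12 miRNA lists (y axis). Blue points were lower and red points higher at an FDR under 0.05, grey points were not called, and the black bar is the median of the list. The miR-322 cluster (median -1.11) and cartilage (-1.08) hold only blue points, and the red points lie in the muscle, liver and erythrocyte lists.

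The miR-322 cluster fell as a whole. Of its 12 miRNAs counted, 11 were tested and 11 were lower at week 4, with a median log2 fold change of -1.11 beside 0.03 over all 400 miRNAs tested. The remaining one, miR-450a-3p, was too low to test, with at most 2.94 RPM in any sample. The summed level of the cluster was 3987, 6503 and 8414 RPM at baseline (lowest, median and highest rat) and 1759, 2591 and 3530 RPM at week 4, and it fell in 12 of 12 rats. Each week 4 sum therefore lay below each baseline sum.

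MiR-322-3p was the most abundant member. It had 1739, 2863 and 4370 RPM at baseline and 748, 1119 and 1462 RPM at week 4, a log2 fold change of -1.35 (SE 0.14, FDR = 4.0e-10), or 2.55-fold lower. The decrease in a single rat ranged from -0.77 to -2.44 on the log2(RPM + 1) scale. Its 12 week 4 values lay below all 12 baseline values, which was also so for miR-322-5p, miR-503-5p and miR-450b-3p. These 4 were the only ones of the 400 tested (1.00%) whose groups did not overlap.

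The largest change of the cluster was that of miR-351-3p, from a median of 256 RPM (93.8 to 357) to 72.0 RPM (46.9 to 134), a log2 fold change of -1.58 (SE 0.17, FDR = 7.3e-10). MiR-503-3p followed, from 465 RPM (225 to 612) to 136 RPM (80.5 to 232) and a log2 fold change of -1.51 (SE 0.16). MiR-503-5p, which is known to act on cyclins, went from 140 RPM (88.9 to 247) to 56.8 RPM (48.6 to 88.0). The highest week 4 value of miR-503-5p was thus just under its lowest baseline value. MiR-450a-5p was the second most abundant member, with 1188 RPM (534 to 2559) at baseline and 489 RPM (208 to 987) at week 4, and it was lower in 11 of 12 rats. It rose in rat 29, as did miR-450b-5p, and miR-542-5p rose in rat 16, while the other 8 miRNAs of the cluster that were tested fell in every rat. The smallest change was that of miR-542-3p, with a log2 fold change of -0.89 (SE 0.16).

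**Figure D2:**
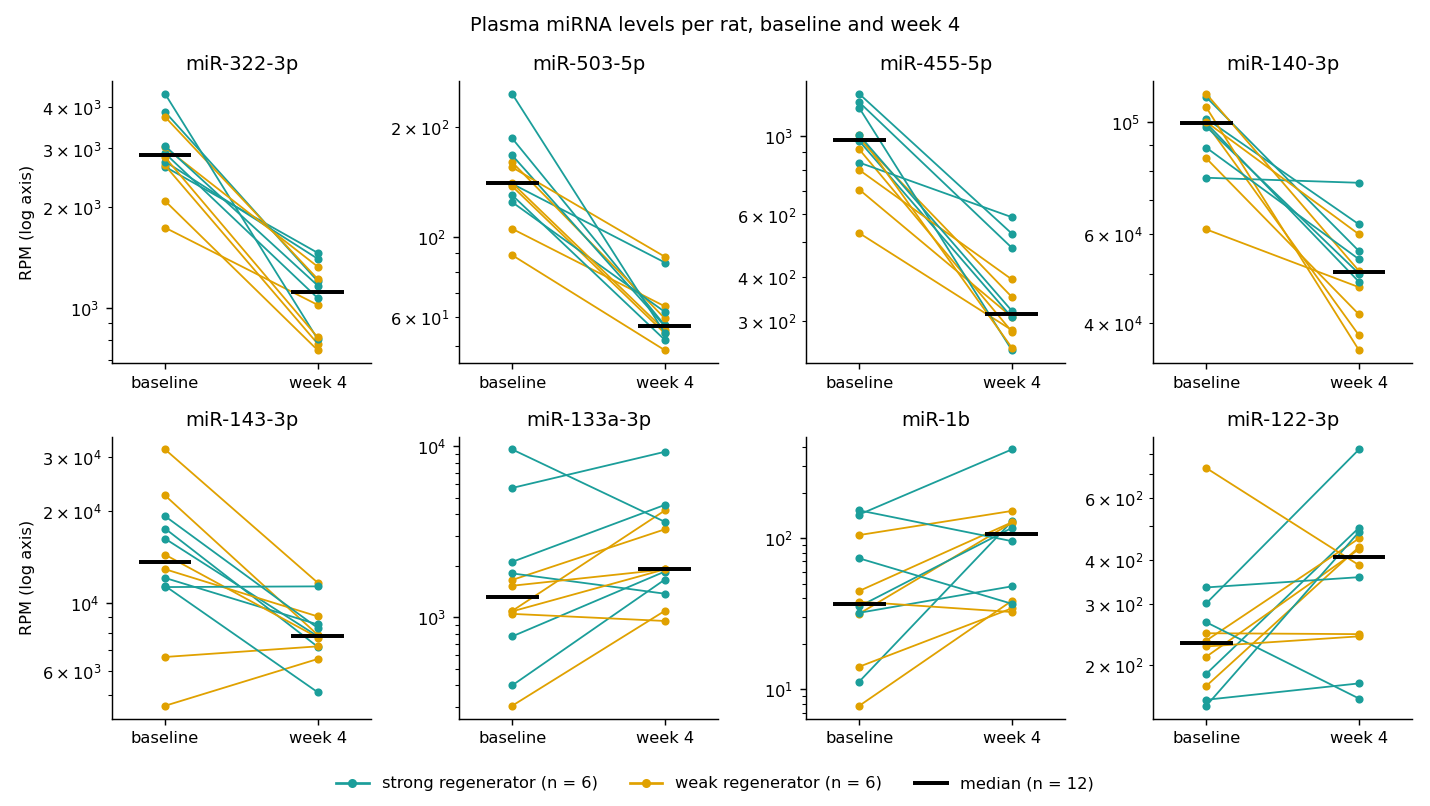
Level of 8 miRNAs in plasma (y axis, RPM, log axis) at baseline and at week 4, with 1 line per rat (turquoise, 6 strong regenerators; yellow, 6 weak regenerators) and the median of 12 rats as a black bar. All lines fall for miR-322-3p, miR-503-5p, miR-455-5p and miR-140-3p, 9 of 12 fall for miR-143-3p, and 9 of 12 rise for each of miR-133a-3p, miR-1b and miR-122-3p.

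Both arms of the 2 cartilage hairpins fell, in 12 of 12 rats each. MiR-140-3p was the only miRNA among the decreases that made up a large part of the reads, with 9.54% ± 1.51 of the miRNA reads at baseline and 5.15% ± 1.13 at week 4 (SD, n = 12). It had 61288, 99573 and 113974 RPM at baseline and 35248, 50359 and 75864 RPM at week 4, a log2 fold change of -0.80 (SE 0.12, FDR = 8.0e-07). The groups overlapped, since the highest week 4 value was above the lowest baseline value. MiR-140-5p, the arm known best for its role in cartilage, went from 490 RPM (339 to 880) to 272 RPM (141 to 451), with a log2 fold change of -0.88 (SE 0.16). MiR-455-5p went from 976 RPM (531 to 1318) to 314 RPM (247 to 589), with a log2 fold change of -1.33 (SE 0.15, FDR = 1.1e-09). MiR-455-3p went from 4477 RPM (2465 to 5672) to 1522 RPM (1062 to 3625), with a log2 fold change of -1.28 (SE 0.15). The miRNAs of the cluster and of cartilage made up 15 of the 39 decreases and 12 of the 20 that were seen in 12 of 12 rats. These 2 lists, chosen with earlier results of these data known, hold 11 and 4 of the 400 miRNAs tested.

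Of the miRNAs of mesenchymal and smooth muscle cells, 5 of 9 tested were lower and 0 higher (median log2 fold change -0.65), and all 9 fold changes were below 0. Over all 400 miRNAs tested, 9.75% were called lower and 192 had a fold change below 0. MiR-143 and miR-145 are made from 1 transcript and mark smooth muscle. MiR-143-3p had 4620, 13627 and 31671 RPM at baseline and 5114, 7827 and 11638 RPM at week 4 (log2 fold change -0.65, SE 0.15, FDR = 0.0013). The high baseline values were not seen at week 4, the low end of the range was alike, and the 3 rats that rose (6, 16 and 29) had the 3 lowest baseline values. MiR-143-5p fell in 11 rats (-0.89, SE 0.22) and miR-145-3p in 10 (-0.51, SE 0.18, FDR = 0.0486). MiR-145-5p was not called, with medians of 2703 and 2370 RPM (-0.31, FDR = 0.223). MiR-152-3p, which targets a DNA methyltransferase, fell in 12 of 12 rats, from 1078 RPM (736 to 1522) to 584 RPM (343 to 976), with a log2 fold change of -0.73 (SE 0.15). MiR-199a-5p fell in 9 rats (-0.66, SE 0.17), while miR-199a-3p (-0.43, FDR = 0.236), miR-214-3p (-0.43, FDR = 0.0640) and miR-152-5p (-0.76, FDR = 0.0818) were not called, and miR-214-5p was too low to test. The call of miR-145-3p held in only 4 of the 12 alternatives. It was lost with DESeq2, limma-voom and the edgeR version 4 method, among others, and when any of rats 3, 5, 23, 25 or 26 was left out. With all 48 samples, with or without the rat as a block, the calls of miR-143-3p, miR-143-5p, miR-145-3p and miR-199a-5p were lost.

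Of 11 miRNAs of the miR-125 and miR-99/100 families, 5 were lower and 0 higher, where 9.75% of all miRNAs tested were called lower. Their median log2 fold change was -0.42. The passenger arms were the clearest, miR-125b-1-3p from 24.9 RPM (19.0 to 42.4) to 14.4 RPM (5.69 to 22.7) and miR-125b-2-3p from 228 RPM (193 to 358) to 140 RPM (93.8 to 249), each in 12 of 12 rats. MiR-125b-5p, the abundant arm of both hairpins, fell in 8 of 12 rats, from 1545 RPM (667 to 4706) to 913 RPM (423 to 2351), with a log2 fold change of -0.60 (SE 0.21, FDR = 0.0486). It was among the 3 calls nearest to the threshold, was lost in 9 of the 12 alternatives and was lost when any of rats 2, 3, 21, 23 or 29 was left out. MiR-99b-3p (-0.58, SE 0.19) and miR-99a-5p (-0.37, SE 0.13) fell in 10 and 11 rats, while miR-100-5p (-0.23) and miR-99b-5p (-0.15) were not called. The call of miR-99a-5p held in 4 of the 12 fits that left out a rat and that of miR-99b-3p in 8.

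The imprinted Dlk1-Dio3 cluster, a long array of miRNAs expressed from the maternal chromosome and mostly in placenta, brain and muscle, was low in plasma. Of its 26 miRNAs tested, 3 were lower and 0 higher, which is near the 9.75% called lower over all miRNAs tested. The median log2 fold change was -0.43, and 25 of the 26 were below 0, beside 192 of all 400. MiR-127-3p went from 15.7 RPM (4.98 to 53.2) to 6.39 RPM (0.875 to 15.2), with a log2 fold change of -1.22 (SE 0.28), and miR-411-5p from 27.5 RPM (9.12 to 96.4) to 13.6 RPM (6.95 to 32.7), with -0.98 (SE 0.24). Each fell in 11 rats, and their groups overlapped widely. The third was miR-382-5p (-0.55, SE 0.18, FDR = 0.0386), whose call was lost when any of rats 5, 6, 23, 25 or 26 was left out.

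Among the decreases outside these groups, miR-149-5p fell in 12 of 12 rats, from 394 RPM (247 to 512) to 192 RPM (128 to 295), with a log2 fold change of -0.93 (SE 0.15, FDR = 3.8e-06). MiR-196a-5p and miR-196c-5p, which lie in the Hox gene clusters and act on Hox genes, each fell in 11 rats. MiR-196a-5p went from 147 RPM (78.8 to 444) to 75.2 RPM (40.7 to 313) and miR-196c-5p from 19.8 RPM (9.95 to 48.9) to 8.90 RPM (3.47 to 16.3). Their sequences differ from each other and from miR-196b-5p at 1 base, and reads were mapped with 1 mismatch allowed, so reads of 1 could have been counted for another. MiR-196b-5p was not called (-0.38, FDR = 0.158). MiR-196a-5p was not called without the rat as a block (FDR = 0.137).

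MiR-210-3p, which is induced by hypoxia, fell in 12 of 12 rats, from 1057 RPM (777 to 1642) to 709 RPM (524 to 1017), with a log2 fold change of -0.45 (SE 0.14, FDR = 0.0241), a call that was lost without rat 6 or rat 25. MiR-181b-5p fell in 12 of 12 rats, from 2858 RPM (2323 to 4510) to 2015 RPM (1375 to 2522), with -0.48 (SE 0.13). MiR-181d-5p, which differs from it at 1 base, was not called and had a fold change of the other sign (0.15, SE 0.14). MiR-181a-1-3p (-0.54, SE 0.15) fell in 12 of 12 rats, and miR-709 (-0.91, SE 0.21) in 11. MiR-34b-5p (-0.71, SE 0.21), a target of p53, fell in 10 rats, and its other arm had a log2 fold change of -0.01 (SE 0.27). The call of miR-34b-5p was lost without rat 6 and without the rat as a block (FDR = 0.203). Of the remaining miRNAs studied in bone cells, 9 of 10 tested, which included miR-21-5p, miR-26a-5p, miR-29a-3p, miR-138-5p, miR-204-5p and miR-218a-5p, were not called, and miR-196a-5p was the one that was, a share near that over all miRNAs tested. MiR-590-5p, the miRNA of the plasmid, had no row in the counts.

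All 9 increases were members of the muscle, liver and erythrocyte lists, which hold 8, 8 and 6 of the 400 miRNAs tested. The lists were chosen with earlier results of these data known. Of 8 muscle miRNAs tested, 4 were higher and 0 lower (median log2 fold change 0.93), where 2.25% of all miRNAs tested were called higher. MiR-133a-3p, the most abundant, had 304, 1309 and 9574 RPM at baseline and 952, 1906 and 9270 RPM at week 4 (log2 fold change 0.88, SE 0.19, FDR = 0.0007). The groups overlapped over most of their range, and the change lay within rats, since 9 of 12 rose and rats 6, 23 and 29 fell. Rat 29, with the highest baseline value, went from 9574 to 3613 RPM. MiR-1b went from 36.6 RPM (7.77 to 152) to 106 RPM (32.4 to 386), a 2.19-fold increase (log2 fold change 1.13, SE 0.24), and fell in rats 23, 26 and 29. MiR-133b-3p went from 15.1 RPM (4.98 to 67.6) to 21.4 RPM (10.9 to 117), with a log2 fold change of 0.98 (SE 0.24), and fell in rats 23, 25 and 29. Rats 23 and 29 thus went against the rise in each of these 3. MiR-133a-5p, the low arm of the same hairpins, rose in 11 rats, from 4.46 RPM (2.59 to 19.1) to 14.2 RPM (3.5 to 37.9), with a log2 fold change of 1.21 (SE 0.31).

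The other muscle miRNAs were not called. MiR-1-3p, the form of miR-1 annotated beside miR-133a, had medians of 22.7 and 31.9 RPM (log2 fold change 0.52, SE 0.27, FDR = 0.240), miR-206-3p of skeletal muscle medians of 4.98 and 7.27 RPM, and miR-208b-3p, which is made from a myosin gene, 1.93 and 5.52 RPM (FDR = 0.0897). MiR-499-5p, made from another myosin gene, had a log2 fold change of -0.01 (SE 0.30). The 4 increases held with each rat left out. That of miR-133a-3p was lost with a robust estimate of the spread and with all 48 samples and the rat as a block. With scaling to UniSp2, miR-1b stayed called (0.77), while miR-133a-3p (0.50, FDR = 0.0822), miR-133a-5p (0.82, FDR = 0.0605) and miR-133b-3p (0.60, FDR = 0.0919) did not. Without the rat as a block, none of them was called, the FDR was 0.565 for miR-133a-3p, 0.139 for miR-1b, 0.171 for miR-133b-3p and 0.0639 for miR-133a-5p, and the log2 fold change of miR-133a-3p was 0.46 in place of 0.88.

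Of 8 liver miRNAs, 3 were higher and 0 lower, and all 8 fold changes were above 0 (median 0.60). Over all 400 miRNAs tested, 2.25% were called higher and 208 had a fold change above 0. MiR-122-3p went from 231 RPM (153 to 730) to 407 RPM (161 to 825), with a log2 fold change of 0.65 (SE 0.19, FDR = 0.0120), and rose in 9 rats. MiR-122-5p, the main form in hepatocytes, had the same log2 fold change (0.64, SE 0.25) with a wider error, from 720 RPM (353 to 2534) to 1388 RPM (431 to 3713), and was not called (FDR = 0.0818). MiR-802-5p went from 295 RPM (164 to 818) to 437 RPM (214 to 850), with 0.60 (SE 0.18), and rose in 8 rats. MiR-802-3p went from 11 RPM (8.63 to 54.3) to 24.7 RPM (9.94 to 55.0), with 0.80 (SE 0.25), and rose in 10. Rats 23 and 25 went against the rise in all 3, and rat 25 had the highest baseline value of each. MiR-192-3p (0.59, FDR = 0.0596) was just outside the threshold. Without rat 2 the call of miR-802-3p was lost, and without rat 3 that of miR-802-5p. Without the rat as a block none of the 3 was called, with an FDR of 0.109 for miR-122-3p and of 0.154 for miR-802-3p. All 3 calls were also lost with all 48 samples, with or without the block. With scaling to UniSp2 none of them was called either, with log2 fold changes of 0.27 for miR-122-3p (FDR = 0.361), 0.45 for miR-802-3p (FDR = 0.202) and 0.24 for miR-802-5p (FDR = 0.393), and with library size alone both arms of miR-802 were lost.

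Of 6 erythrocyte miRNAs, 2 were higher and 0 lower, and all 6 fold changes were above 0 (median 0.36), beside 2.25% called higher and 208 above 0 of all 400 tested. MiR-486 had 52351, 74916 and 92106 RPM at baseline and 61696, 83657 and 124675 RPM at week 4 (log2 fold change 0.36, SE 0.12, FDR = 0.0295), and miR-144-3p 2353, 3328 and 4710 RPM and 2765, 4532 and 5551 RPM (0.44, SE 0.14, FDR = 0.0299). Each rose in 10 of 12 rats. MiR-451-5p, which is transcribed with miR-144, was just outside the threshold (0.39, SE 0.14, FDR = 0.0631). The summed level of the list was 235459, 297969 and 334948 RPM at baseline and 268347, 329135 and 437072 RPM at week 4, and rose in 10 rats. The haemolysis ratio, log2 of miR-451-5p over miR-23a-3p, was 2.15 ± 0.57 at baseline and 2.55 ± 0.60 at week 4 (SD, n = 12), and was higher in 9 of 12 rats (exact sign-flip permutation test, two-sided, p = 0.0601). With miR-191a-5p in place of miR-23a-3p the difference was 0.13. Its part in the higher level of these miRNAs was not tested. The call of miR-486 was lost without rat 16, 23 or 26, and that of miR-144-3p without rat 6, 23 or 26. With all 48 samples, with or without the rat as a block, neither was called. Both were lost with library size alone and with scaling to UniSp2, under which the log2 fold changes were -0.0094 for miR-486 (FDR = 0.964) and 0.07 for miR-144-3p (FDR = 0.773).

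The miRNAs of the other blood cells and of epithelium were not called. None of 6 of platelets and endothelium (median 0.10), 8 of leukocytes (median 0.13) and 9 of epithelium and endocrine cells (median 0.19) passed edgeR's test, and 1, 1 and 0 of them had an unadjusted p under 0.05. MiR-126a-3p of endothelium had medians of 6619 and 5735 RPM (log2 fold change -0.12, SE 0.13), miR-150-5p of lymphocytes 21124 and 17392 RPM (0.01, SE 0.18) and miR-223-3p of myeloid cells 11907 and 13500 RPM (0.31, SE 0.12, FDR = 0.0900). MiR-375-3p of endocrine cells had medians of 1782 and 2146 RPM (0.20, SE 0.15). The sum of the epithelial and endocrine list was 12389, 19532 and 37547 RPM at baseline and 8499, 16512 and 100574 RPM at week 4, with the highest value in rat 25, and leaving that rat out gave 53 calls in place of 48.

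Neighbouring hairpins, within 10000 bases of each other on 1 strand in RefSeq, formed 33 groups with at least 2 miRNAs tested, and 26 of their 149 miRNAs were called, beside 12% over all tested. Of the 33 groups, 23 had no miRNA called, and 2 had all of theirs called. In RefSeq, the 6 hairpins of the miR-322 cluster that were matched lie within 10000 bases of their neighbours on 1 strand. Those of miR-497 and miR-195 also lie side by side, and 3 of their 3 mature miRNAs tested fell, with log2 fold changes from -0.59 to -0.63. MiR-497-5p fell in 12 of 12 rats, from 1638 RPM (1001 to 3390) to 1011 RPM (593 to 1922), and its call was lost with all 48 samples, with or without the rat as a block. The 2 arms of miR-195 were near the threshold (FDR = 0.0486 and 0.0488) and were lost in 7 and 9 of the 12 alternatives. Of 4 miRNAs of the neighbours miR-143 and miR-145, 3 fell, and of 3 of miR-133a and miR-1, 2 rose. Of 4 miRNAs of miR-144 and miR-451, 1 rose, and the 4 fold changes lay between 0.35 and 0.44. Of the long block of the Dlk1-Dio3 region that begins with miR-379, 2 of 26 fell, of miR-34b and miR-34c 1 of 4, and of miR-99b, let-7e and miR-125a 1 of 6.

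The 2 arms of a hairpin changed alike. Over the 80 hairpins with both arms at a mean of at least 10 RPM, the log2 fold changes of the arms had a Pearson r of 0.90 and a Spearman rho of 0.80 across hairpins, which are not independent replicates and share their libraries. Leaving out those of the miR-322 cluster and of cartilage, 73 hairpins gave an r of 0.81 and a rho of 0.74. Both arms were lower for 9 hairpins and higher for 2. For 10 hairpins 1 arm was called, and the other arm had the same sign in all 10, though that of miR-34b was at -0.007. Most hairpins with no arm called also had arms of the same sign. No hairpin had arms called in opposite directions, the median difference between arms was 0.10 on the log2 scale, and the largest was 0.70, for miR-34b.

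**Figure D3:**
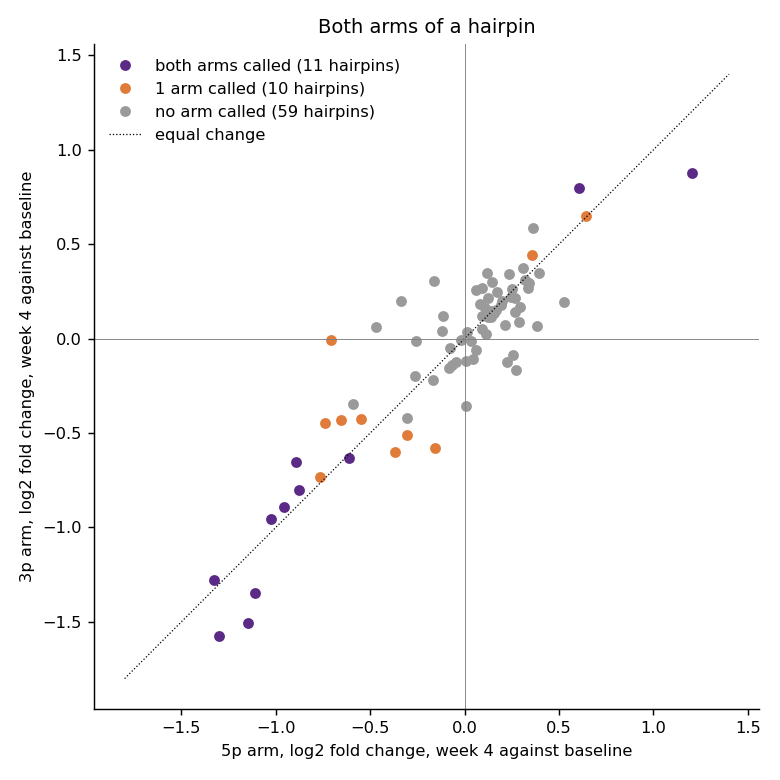
Log2 fold change of week 4 against baseline of the 5p arm (x axis) and the 3p arm (y axis) of 80 hairpins with both arms at a mean of at least 10 RPM. Purple points have both arms called (11 hairpins), orange points 1 arm (10) and grey points none (59), and the dotted line marks equal change. The points lie along the line, and the orange point on the horizontal axis is miR-34b.

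MiRNAs with a shared seed did not all pass the test together. The seed AGCAGCA is held by 5 miRNAs tested, of which miR-322-5p (-1.11), miR-195-5p (-0.61) and miR-497-5p (-0.59) were lower, while miR-16-5p (0.24, SE 0.11, FDR = 0.163) and miR-15b-5p (0.34, SE 0.20, FDR = 0.299) were not called. MiR-16-5p is made in most cells and abundant in erythrocytes, and its medians of 99779 and 102471 RPM exceeded those of miR-322-5p (357 and 154 RPM) by far. Of the 3 miRNAs with the seed CCCUGAG, miR-351-5p (-1.30) and miR-125b-5p (-0.60) were lower and miR-125a-5p was not called (-0.31, SE 0.16). MiR-152-3p fell, while miR-148a-3p (-0.17) and miR-148b-3p (0.20), which share its seed CAGUGCA, were not called. The seeds UUUGCGA (miR-450a-5p and miR-450b-5p) and UUGGUCC (miR-133a-3p and miR-133b-3p) were each held by 2 miRNAs that changed the same way, and the members of each pair differ by 1 mismatch over their shared length, so their counts may not be independent. Of the 43 called miRNAs with a sequence, 26 had a seed that no other tested miRNA held.

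Week 4 was then set against the other 2 time points after surgery in direct tests, since the changes against baseline at weeks 1, 4 and 8 share the baseline samples. Against week 1, 4 of 619 miRNAs tested (0.646%) differed, and 46 had an unadjusted p under 0.05. The 4 were higher at week 4, and they were all of muscle. MiR-133a-3p had 1231 ± 773 RPM at week 1 and 2970 ± 2327 RPM at week 4 (SD, n = 12; log2 fold change 1.26, SE 0.20, FDR = 0.0006), and miR-1b 34.2 ± 21.5 and 110 ± 97.7 RPM (1.58, SE 0.29, FDR = 0.0019). The other 2 were miR-133b-3p (1.32, SE 0.28, FDR = 0.0126) and miR-1-3p (1.31, SE 0.30, FDR = 0.0242). At week 1 the log2 fold changes of the 4 against baseline lay between -0.33 and -0.83, and that of miR-1-3p passed the test (FDR = 0.0118). Without the rat as a block edgeR called 0 miRNAs against week 1, where 70 had an unadjusted p under 0.05, and with a robust estimate of the spread 2. None of the 39 decreases was called against week 1, and 8 of them had an unadjusted p under 0.05. Against baseline, 24 of the 39 decreases were also called lower at week 1 and 30 at week 8, where 19.0% and 43.7% of the miRNAs tested were called, 11.3% and 27.9% lower, and 5 and 4 of the 9 increases were also called higher (7.71% and 15.8% of those tested were).

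Against week 8, 199 of 495 miRNAs tested (40.2%) differed from week 4, 15.6% higher and 24.6% lower at week 8. Of the 39, 15 were lower still at week 8 and 8 were higher than at week 4. Those that fell further included miR-322-3p, from 1086 ± 253 RPM at week 4 to 391 ± 128 RPM at week 8 (log2 fold change -1.47, SE 0.16), miR-152-3p (-1.56, SE 0.17), miR-140-5p (-1.39, SE 0.18) and miR-125b-5p (-1.35, SE 0.17). Those that rose again included miR-34b-5p, from 25.8 ± 16.7 to 136 ± 62.4 RPM (2.54, SE 0.21), miR-143-5p (0.88, SE 0.23), miR-181b-5p (0.79, SE 0.14), miR-497-5p (0.72, SE 0.16) and miR-450a-5p (0.70, SE 0.16). Members of the miR-322 cluster were thus found on both sides. Of the 9 increases, 4 were lower at week 8, namely miR-133a-5p (-0.84), miR-144-3p (-0.79), miR-1b (-0.67) and miR-122-3p (-0.59). The week 8 samples stand apart, with 91.1 to 144 UniSp2 reads per 1000 miRNA reads against 25.9 to 60.4 at week 4, and the part of this in the differences from week 4 was not tested.

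**Figure D4:**
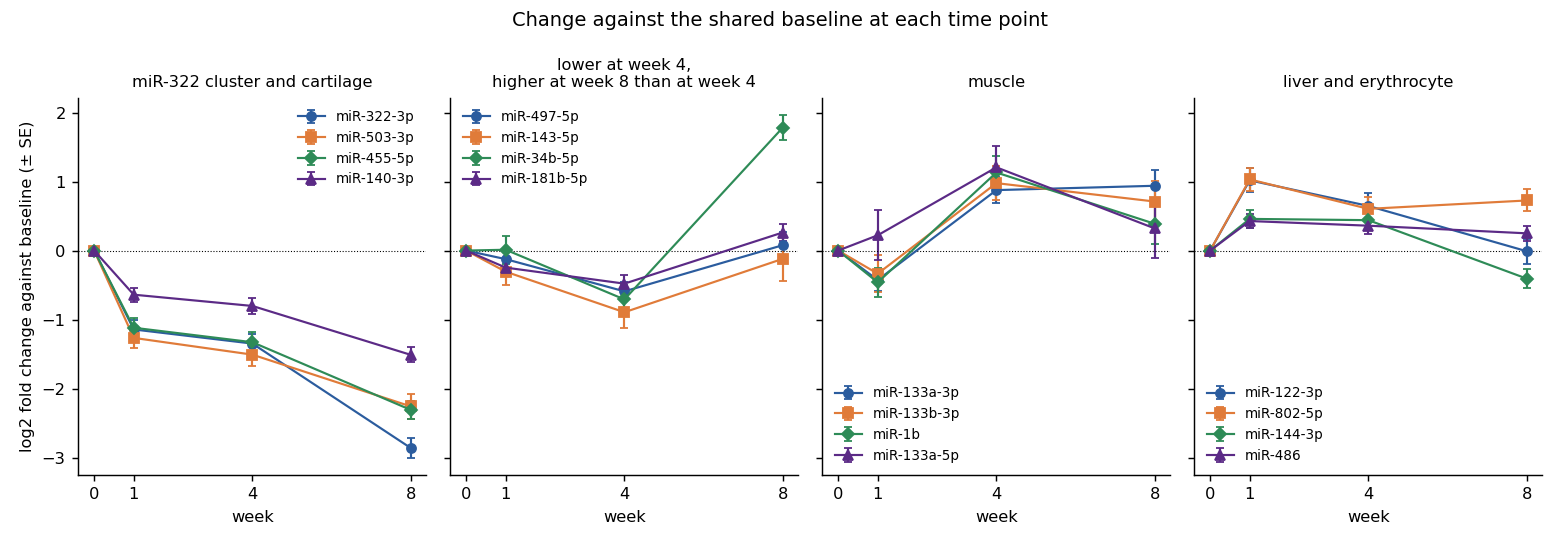
Log2 fold change against baseline (y axis, ± SE, 12 rats per time point) at weeks 1, 4 and 8 after surgery (x axis, weeks) for 16 miRNAs in 4 panels. The 3 comparisons share the baseline samples. MiR-322-3p, miR-503-3p, miR-455-5p and miR-140-3p are below 0 at each time point, and miR-34b-5p goes from -0.71 at week 4 to 1.78 at week 8. The muscle miRNAs have their highest point at week 4 or, for miR-133a-3p, at week 8. In the direct test of week 8 against week 4, miR-133a-5p and miR-1b were called lower and no muscle miRNA shown was called higher.

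Strong and weak regenerators had been pooled, so the change at week 4 was also fitted in each. Per the study, no rat with a plain CHA scaffold was among the weak regenerators, and the treatments were spread unevenly over both groups, so treatment and outcome cannot be told apart in this comparison. Of the 39 decreases, 38 had a fold change below 0 in both groups of rats, and all 9 increases had one above 0 in both. These miRNAs had been called on the same rats pooled. A shared sign was therefore largely set by that choice and is no separate support for a like change in both groups. MiR-322-3p fell by 1.37 on the log2 scale in strong and by 1.32 in weak regenerators, and the difference between them was -0.05 (FDR = 0.952). MiR-133a-3p rose by 0.67 in strong and by 1.07 in weak regenerators, with a difference of -0.41 (FDR = 0.549). MiR-125b-5p was the decrease without a shared sign, with -1.37 in strong and 0.18 in weak regenerators. In the test of the difference, 19 of 257 miRNAs (7.39%) were called, and all 19 had a lower value in strong minus weak regenerators. None of them was called by DESeq2, limma-voom, the quasi-likelihood method of edgeR version 4, an exact permutation of the rats or a fit without the rat as a block. The smallest FDR over 614 miRNAs was 0.0589 by DESeq2, 0.0832 by the edgeR version 4 method, 0.180 by limma-voom and 0.377 without the block. The permutation cannot give a p below 0.0022, so it could hardly call any of 257 miRNAs, and its lack of calls decides nothing. An unadjusted p under 0.05 was found for 37 of these 257 miRNAs by edgeR and for 25 by exact permutation, and, of 614 miRNAs, for 44 by edgeR, 37 by DESeq2, 46 by limma-voom, 40 by the edgeR version 4 method and 41 without the block. Of the 19, 3 were also among the 39 decreases (miR-125b-5p, miR-195-5p and miR-199a-5p).

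**Figure D5:**
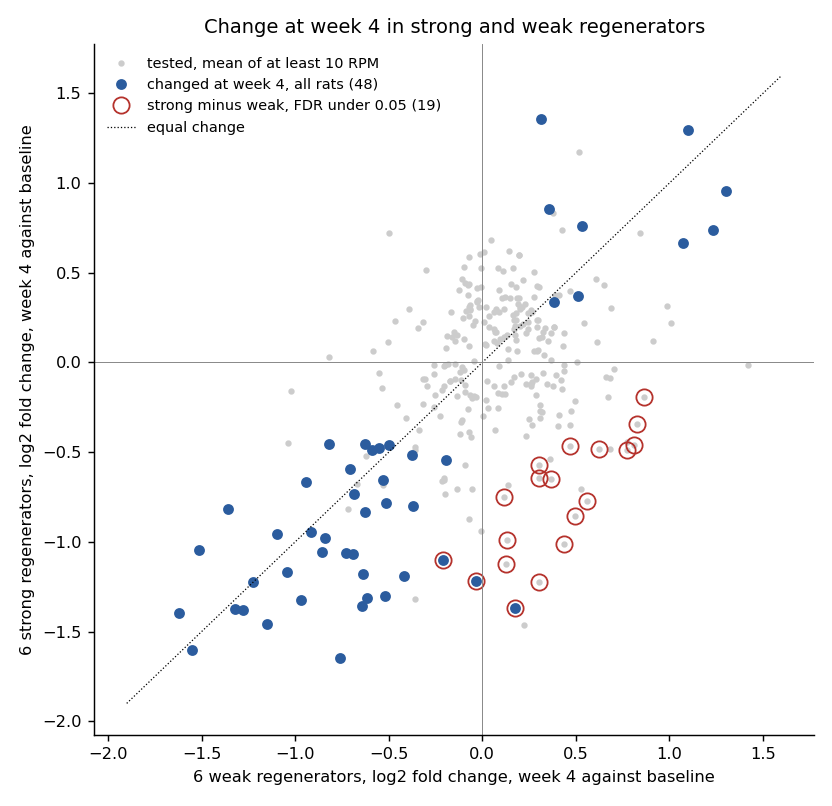
Log2 fold change of week 4 against baseline in the 6 weak regenerators (x axis) and the 6 strong regenerators (y axis). Blue points are the 48 miRNAs changed over all rats, red circles the 19 whose change differed between the groups by edgeR, grey points other miRNAs tested with a mean of at least 10 RPM, and the dotted line marks equal change. Most blue points lie in the quadrants where both groups changed the same way, and the circled points lie below the line.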

How the data were processed

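Small RNA of plasma was sequenced with a single-adapter ligation protocol. The authors trimmed reads with cutadapt 3.3, mapped them with Bowtie 1.3.0 and miRDeep2, using the rat genome (Rnor_6.0) and after it miRBase's rat entries with 1 mismatch allowed, and deposited raw counts for 645 miRNAs and 3 extraction spike-ins, without normalization. The submitters' processing notes name a human genome build, unlike the methods. RPM was computed over the miRNAs only. No molecular identifiers are described, so reads need not be independent molecules.

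Counts of the 12 baseline and 12 week 4 samples were tested with R 4.3.3 and edgeR 4.0.16, by the quasi-likelihood method of edgeR version 3 with TMM normalization, the rat as a block and the time point as the term. An independent filter on mean abundance after the default rule of DESeq2 left 400 miRNAs with a mean above 2.60 RPM, and p-values were adjusted by Benjamini-Hochberg (FDR). All tests were two-sided. SE is the absolute log2 fold change over the square root of F. The study's methods name no term for the animal. The rat was the block here because the samples are paired by animal label. The 2 samples of a rat deviated from their group means with a correlation of 0.123 on average (8 of 12 over 0.1). For samples of different rats it was -0.010 (43 of 132 over 0.1). Single values were compared by exact sign flips over 12 rats (4096), and changes in strong and weak regenerators by the exact 924 splits of the rats. In the fits with the rat as a block and in the sign flips, p-values rest on how the change varied between rats. They do not rest on how the levels varied between rats. The script was tested on simulated data.

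Alternatives were RLE, library size or UniSp2 scaling in place of TMM, no filter or filterByExpr, DESeq2 1.42.0, limma-voom (limma 3.58.1), the method of edgeR version 4, no block, all 48 samples with or without the block, each rat left out and a 2-fold threshold. The robust spread estimate and, for strong against weak regenerators, the method of edgeR version 4, limma-voom and exact permutation were chosen after seeing the data. Tables and plots used Python 3.11.15, numpy 2.4.6, scipy 1.17.1, pandas 2.3.3 and matplotlib 3.10.9. Named miRNAs are up to 40 called miRNAs by size of change with a mean of at least 10 RPM, the 3 nearest to the threshold on each side, the members of 12 lists and those the study names. MiR-210-3p and miR-181b-5p, the miRNAs sharing a seed and those of the difference between strong and weak regenerators were named after their values were seen. The samples compared, the lists and the named miRNAs were chosen with earlier results of these data known. Lists are described by counts and medians, with no test of the list.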

Additional observations from a re-analysis of the deposited data

Results flagged for a closer look

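The change at week 4 differed between strong and weak regenerators for 19 miRNAs by the interaction term of edgeR's quasi-likelihood test (FDR under 0.05, 6 rats per group), 7.39% of the 257 tested. Among them were 6 of the 12 let-7 miRNAs tested, a count made after the values were seen. Several of these 6 differ from another at 1 base, as let-7a-5p does from let-7c-5p. Mapping allowed 1 mismatch, so their counts may hold reads of each other, and the 6 may not be independent. The difference of the log2 fold changes, strong minus weak, was -1.55 for miR-125b-5p, -1.53 for miR-199a-3p, -1.45 for let-7c-5p, -1.35 for let-7b-5p, -1.33 for let-7a-5p, -1.27 for miR-7a-5p, -1.26 for let-7g-5p, -1.25 for let-7e-5p, -1.18 for miR-195-5p, -1.17 for miR-17-1-3p, -1.12 for miR-204-5p, -1.11 for miR-10b-5p, -1.06 for miR-15b-5p, -1.02 for miR-151-5p, -0.95 for miR-99b-5p, -0.94 for miR-328a-3p, -0.90 for miR-199a-5p, -0.87 for let-7f-5p and -0.87 for miR-125a-5p. In 17 of them, the fold change was below 0 in strong and above 0 in weak regenerators. Let-7c-5p, for example, had medians of 1634 RPM at baseline and 696 RPM at week 4 in strong and of 819 and 896 RPM in weak regenerators, so the strong regenerators were the higher ones at baseline. By exact permutation of the rats on log2(RPM + 1), the unadjusted p of the 19 lay between 0.0043 and 0.177 and was under 0.05 for 14, the smallest p that 924 splits can give is 0.0022, and the lowest FDR over the 257 miRNAs tested was 0.484.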

How the results depend on the processing

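The 48 calls of week 4 against baseline (9 higher and 39 lower) became 87 with scaling to UniSp2 (1 higher and 86 lower), 27 with all 48 samples and no block (1 and 26), 31 with all 48 samples and the rat as a block (4 and 27) and 14 with the 2-fold threshold. The other alternatives gave 35 to 61 calls, with 35 (2 and 33) without the rat as a block, 56 (16 and 40) with RLE and 61 (24 and 37) with DESeq2, and leaving out each rat gave 42 to 57. Over the 316 miRNAs at 10 RPM or more on average, the median fold change (log2) was 0.07 with TMM, -0.03 with library size alone and -0.31 with UniSp2, under which the fold change of miR-486 reversed to -0.0094. Relative to that median, miR-486 was higher by a similar amount under TMM and UniSp2. Under UniSp2 all 39 decreases and 1 of the 9 increases, that of miR-1b, stayed called, and with library size alone the calls of miR-486, miR-144-3p and both arms of miR-802 were lost. Of 2938 values of 126 named miRNAs under the alternatives, 2692 kept their direction and side of the threshold, 146 lost and 67 gained the call, 32 moved and 1 reversed.

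The 19 differences between strong and weak regenerators became 10 with library size alone, 10 with no filter and 0 with DESeq2, with no block for the rat, with the edgeR version 4 method, with limma-voom and by exact permutation. The 4 differences from week 1 became 0 with no block and 2 with the robust spread estimate, while the 199 differences between weeks 8 and 4 ranged from 191 to 208. The number of miRNAs with more than 10 reads changed by -5.5 (exact p = 0.583), and by -5.83 after thinning to the smallest total (p = 0.0166). The difference in UniSp2 on the log2 scale was 0.28 (exact p = 0.0601). The haemolysis ratio differed by 0.40 on average, a value that the pairing cannot change. The causes were not tested. Of 84 miRNAs tested with a mean under 10 RPM, edgeR called 0 and 5 had an unadjusted p under 0.05, and the part of depth in this was not tested.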
